A study of Mus musculus with 5 samples.

Results

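The nuclei described here are the candidates for the CeC Calcrl/Drd2 neurons of the mouse central amygdala (CeA), a group of inhibitory neurons assigned to its capsular division (CeC). They were chosen on measured counts. A nucleus had to carry at least 1 Calcrl UMI (a unique molecular identifier, standing for 1 captured RNA molecule) and at least 3 UMIs of Calcrl and Drd2 together per 10,000 of its UMIs, to have a Gad1 or Gad2 UMI, and to stay under limits on genes of neighbouring types. These limits were 6 per 10,000 for Dnah5, Vipr2, Tac2 and Nts together, 15 for Pde1c, 5 for Rarb and 8 for Foxp2. The rule kept 245 of 6020 inhibitory nuclei, out of 7161 nuclei within the bounds on genes and mitochondrial counts and 23839 deposited barcodes. They are called Calcrl-gated nuclei below, because Drd2 had a UMI in 97 of them (39.6%) and because their place in the tissue cannot be read from dissociated nuclei.

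Calcrl encodes the calcitonin receptor-like receptor, which forms the receptor for calcitonin gene-related peptide (CGRP) when it pairs with the accessory protein Ramp1 and an adrenomedullin receptor when it pairs with Ramp2 or Ramp3. CGRP reaches the capsular and lateral amygdala from the parabrachial nucleus, a pathway known for carrying visceral and painful signals that reduce feeding. Drd2 encodes the inhibitory D2 dopamine receptor, and Cdh9, which also marks these neurons, a classical cadherin of synaptic adhesion.

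The study sequenced CeA nuclei in 5 libraries by 10x 3′ single-nucleus RNA-seq, 3 from fed and 2 from fasted mice, to describe CeA cell types and their response to fasting. Each library pooled the tissue of 2 mice, 1 male and 1 female, so the spread between libraries includes no measure of single animals. Fed libraries 1 and 2 came from naive wild-type mice of 8 weeks, labelled C57BL6 and, by the study's methods, of the C57BL/6NRj strain. Fed library 3 came from mice of 12 weeks that carried the Htr2a-Cre BAC transgene, in which Htr2a regulatory sequence drives Cre, and had received AAV-DIO-mCherry, a virus that makes mCherry only where Cre is present. Fasted library 1 came from 8-week-old wild-type mice after 20 hours without food, and fasted library 2 from mice of the same age and strain whose label gives 21 hours.

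The 3 fed libraries gave 52, 25 and 52 Calcrl-gated nuclei and the 2 fasted libraries 59 and 57. Their median depth was 9582, 18131 and 14947 UMIs per nucleus in the fed libraries and 7490 and 18573 in the fasted libraries. Summed over the gated nuclei, the libraries held 521270, 438233 and 825184 UMIs in fed mice and 471534 and 1045941 in fasted mice. Levels are given below as UMIs per 1000000 of such a sum (CPM), in the order fed 1, 2 and 3 and fasted 1 and 2. A count of 0 in a sum allows a level of up to 5.76, 6.85, 3.64, 6.36 and 2.87 CPM, for counting error only.

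The selected genes are given first, as a description. Calcrl (GRCm39 chr2:84160957-84255755, minus strand) was at 432, 388, 321, 433 and 379 CPM in the gated nuclei, against 21.2 to 33.8 in all other inhibitory nuclei. Drd2 (chr9:49251654-49319477, plus strand) was at 82.5, 70.7, 126, 104 and 156 CPM, against 61.0, 47.6, 69.9, 81.1 and 44.3 in the other inhibitory nuclei. The gate therefore raised Calcrl far more than Drd2, and in the fed libraries and fasted library 1 the Drd2 level of the gated nuclei lay less than 2-fold above that of the other inhibitory nuclei. The 86 gated nuclei just inside the limit, at 3 to 4 per 10,000, had 255 to 328 CPM of Calcrl per library and 269 to 540 of Cdh9. The 103 nuclei just outside it, at 2 to 3 per 10,000, had 151 to 215 CPM of Calcrl and 163 to 301 of Cdh9.

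The Rarb limit removed almost as many nuclei as the gate kept. Of 467 nuclei that met all earlier conditions, 221 were lost to it, and 215 nuclei failed on Rarb alone. In those 215, Drd2 was at 282 to 375 CPM, Cdh9 at 343 to 439 and Penk at 345 to 434. Adora2a, the adenosine receptor of D2-type striatal neurons, was at 83.9 to 136 CPM there and at 13.7 to 37.6 in the gated nuclei, whereas Prkcd was at 6.35 to 19.2 CPM against 225 to 253. The nuclei with the higher Drd2 level were thus on the excluded side of the Rarb limit, and Cdh9 was high on both sides.

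Among genes the rule did not use, the remaining marker of the label was present. Cdh9 (chr15:16728507-16857226, plus strand) was at 382, 418, 287, 361 and 318 CPM in the gated nuclei and had a UMI in 175 of 245 (71.4%). In all 5 libraries this exceeded the other inhibitory nuclei, which held 116, 124, 120, 103 and 101 CPM. Astrocyte nuclei, which served as a background and were shallower, carried a Cdh9 UMI in 0 to 19.0% and a Drd2 UMI in 0 to 5.19% of nuclei per library. Glutamatergic markers were nearly absent, with Slc17a6 at 0 in all 5 sums and Slc17a7 at 0 in 4, while Sv2b, which held nearly all counts of that list, was at 57.3 to 171 CPM. Of 10 interneuron genes, Nkx2-1 and Vip were at 0 in all 5 sums, but the list summed to 646, 205, 471, 621 and 832 CPM, led by Erbb4 at 441, 141, 305, 420 and 479 CPM.

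**Figure D1:**
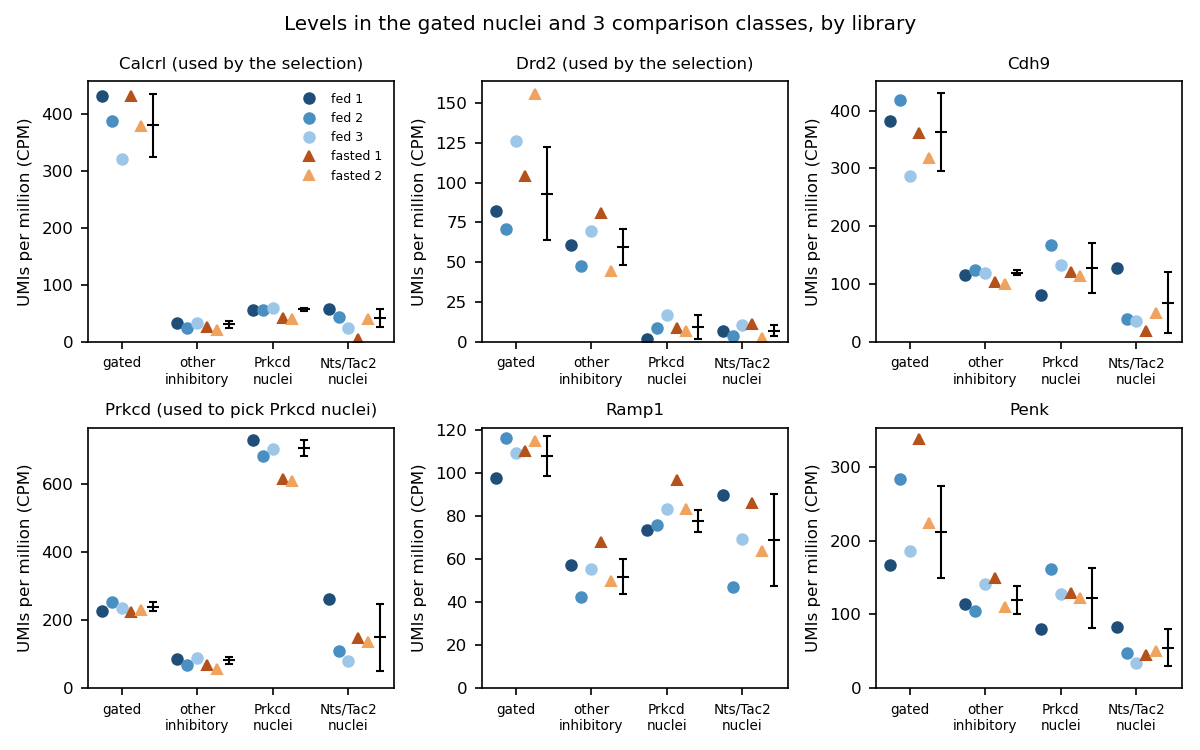
Levels of 6 genes in CPM (y axis) in the Calcrl-gated nuclei, all other inhibitory nuclei, Prkcd nuclei and Nts/Tac2 nuclei, with 1 point per library (circles fed, triangles fasted) and the fed mean ± SD (n = 3) beside them. Calcrl, Drd2 and, for the Prkcd nuclei, Prkcd chose the nuclei, while every gated library lay above every other inhibitory library for Cdh9, Ramp1 and Penk.

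Part of the gated nuclei carried glial transcripts. With a limit of 10 UMIs per 10,000 on any of 5 glial and vessel marker lists, set after the data were seen, 39 of 245 gated nuclei (15.9%) were marked, 6, 4, 7, 9 and 13 per library. Of these, 26 passed the limit for astrocyte genes, 25 for oligodendrocyte precursor genes, 7 for oligodendrocyte, 3 for microglial and 2 for endothelial and mural genes, some for more than 1 list. Marked nuclei held a median of 2 Gad1 and Gad2 UMIs and no more than 5, against a median of 5 in the others. Drd2 had a UMI in 2 of 39 marked nuclei (5.13%) and in 95 of 206 unmarked ones (46.1%), and Cdh9 in 7 of 39 (17.9%) and 168 of 206 (81.6%). Prkcd had a UMI in 9 of 39 (23.1%) and 118 of 206 (57.3%). The marked nuclei met the Calcrl condition, and these other markers were seen in them less often. They were also shallower, at a median of 6902.5, 4184.5, 6644, 6144 and 8196 UMIs per library against 9692.5, 18786, 15708, 8294 and 20650. The shares were not matched for depth.

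The precursor list exceeded the other inhibitory nuclei in every library. Its 6 genes summed to 201, 89.0, 135, 233 and 308 CPM over all gated nuclei, with all 6 detected in each library, against 23.0 to 40.5 in the other inhibitory nuclei. Its most abundant gene was Pdgfra in fed library 1 and Vcan in the other 4. Without the marked nuclei the sum was 14.3 to 21.5 CPM, Vcan led in every library and Neu4 was at 0 throughout. This list was among those that marked the nuclei, so a fall was set by the marking. The 7 microglial genes summed to 290, 333 and 286 CPM in fed libraries 1 and 2 and fasted library 1, and to 15.8 and 30.6 in the other libraries, against 33.5 to 81.8 in the other inhibitory nuclei. The 12 astrocyte genes summed to 240 to 545 CPM, led by Slc4a4 or Slc1a2, and the 10 oligodendrocyte genes to 217 to 319, led by Mbp, ranges that overlapped those of the other inhibitory nuclei. The 9 vessel genes reached 50.2 and 54.5 CPM in fed libraries 2 and 3 and 2.12 to 6.69 elsewhere. The comparisons below were run with and without the marked nuclei. The unmarked gated nuclei still held 208 to 379 CPM of astrocyte and 194 to 243 CPM of oligodendrocyte genes, and the interneuron list summed to 81.3 to 229 CPM in them. The part of this remaining RNA in the results was not tested.

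**Figure D2:**
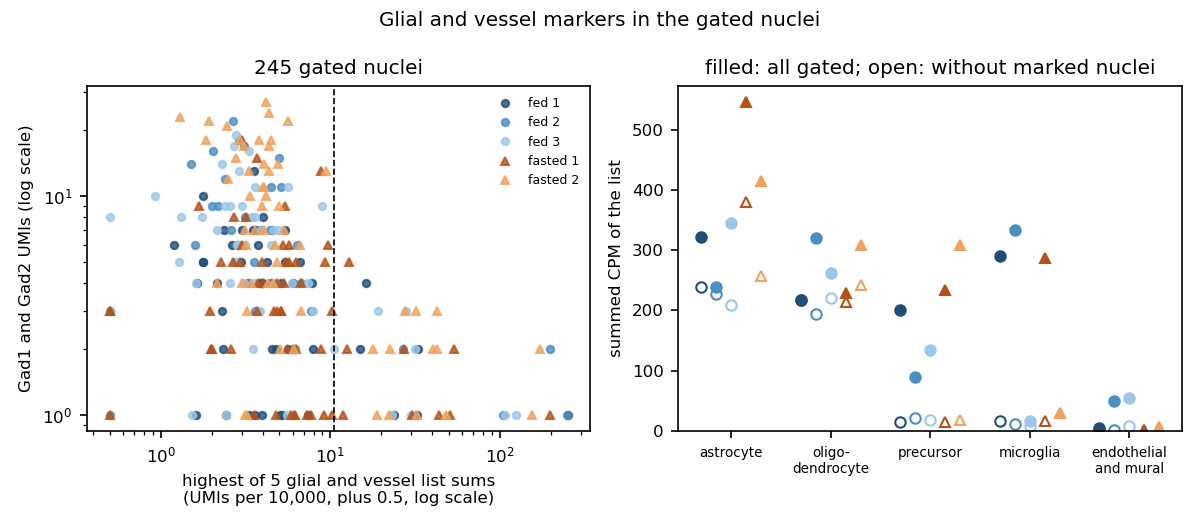
Left, each of the 245 Calcrl-gated nuclei by its highest sum over 5 glial and vessel marker lists (UMIs per 10,000 plus 0.5, log scale) and its Gad1 and Gad2 UMIs (log scale), with the limit of 10 as a dashed line. Right, the summed CPM of each list per library for all gated nuclei (filled) and without the 39 marked nuclei (open), where the precursor sums fall from 89.0 to 308 CPM to at most 21.5. The same lists marked the nuclei, so a fall was set by the marking.

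To describe the fed profile, the gated nuclei were compared with all other inhibitory nuclei of the same 3 fed libraries. They were higher for the CGRP receptor partner Ramp1, for Cdh9, for Prkcd, which encodes protein kinase C delta, and for Penk, the enkephalin precursor, and lower for receptors and marker genes of other CeA neurons. Of 11769 genes tested, 459 (3.9%) were higher and 518 (4.4%) lower in the gated nuclei. Without the marked nuclei 450 of 11489 genes (3.92%) were higher and 605 (5.27%) lower, and the 863 genes called in both fits made up 88.3% of the first set of calls and 81.8% of the second.

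Ramp1 (chr1:91107540-91152918, plus strand) was at 97.8, 116 and 109 CPM in the gated nuclei of the fed libraries, against 57.4, 42.6 and 55.4 in the other inhibitory nuclei. The groups did not overlap, and the log2 fold change was 1.05 ± 0.16 (SE, n = 3 libraries, edgeR adjusted p = 0.000383). Ramp2 and Ramp3, the partners that make adrenomedullin receptors, had at most 3 and 6 UMIs in any library's sum. Of the 11 CGRP and amylin genes listed, 3 could be tested and Ramp1 alone was called, with a list median of -0.13 against 0.00329 over all genes tested. Ramp1 UMIs were also found in 22.7 to 40.5% of astrocyte nuclei per library, so a Ramp1 UMI does not by itself separate these neurons from that background.

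Cdh9 averaged 362 ± 67.4 CPM in the gated nuclei (SD, n = 3), a log2 fold change of 1.57 ± 0.12 against the other inhibitory nuclei. Prkcd (chr14:30317307-30349238, minus strand) was at 228, 253 and 236 CPM against 87.2, 69.9 and 88.0, a log2 fold change of 1.55 ± 0.13. Penk was at 167, 283 and 187 CPM against 115, 104 and 141, a smaller difference of 0.79 ± 0.16 on the log2 scale (edgeR adjusted p = 0.00573). These genes were higher in 3 of 3 libraries and were called with and without the marked nuclei.

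The serotonin receptor gene Htr2a, the kappa opioid receptor gene Oprk1 and the oxytocin receptor gene Oxtr, all studied in other CeA populations, were scarce. Htr2a was at 0, 2.28 and 6.06 CPM in the fed gated nuclei and 9.22, 12.2 and 19.5 in the other inhibitory nuclei, a log2 difference of -2.15 ± 0.51 (edgeR adjusted p = 0.0128). Oprk1 was at 1.92, 0 and 7.27 CPM against 16.1, 20.6 and 14.8, a difference of -2.10 ± 0.52 (edgeR adjusted p = 0.017). Each rested on only a few UMIs in the gated sums, and Oxtr, at 0.24 on the log2 scale, was not called.

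Some of the leading higher genes kept their call without the marked nuclei and others did not. Stk31, a kinase-domain gene best known from germ cells, was at 78.7, 424 and 189 CPM against 22.9, 88.4 and 42.9, with a log2 fold change of 2.11 ± 0.13. Ryr1, an intracellular calcium release channel, was at 462, 242 and 378 CPM against 132, 76.4 and 140, a change of 1.63 ± 0.12, and Prkch, the kinase PKC eta, at 132, 237 and 143 against 56.6, 37.7 and 61.7. Stk31 and Ryr1 differed between libraries. Their gated levels exceeded the matched other nuclei in each, which the naming of leading genes required. Sox13 (1.86), Fbxl7 (1.64), Bcan (1.62), a proteoglycan of perineuronal matrix, and Mlip (1.58) were also called in both fits. Pdgfra (3.13), C1qb (2.93) and Bcas1 (2.35) were too low to be tested once the marked nuclei were removed, and Kank1 and Wipf1 lost their calls, at 1.21 and 0.13 with adjusted p of 0.11 and 0.94 in edgeR. All 5 precursor and 6 microglial genes tested were higher with all nuclei, and 0 of the 1 gene of each list still tested without the marked ones. Over all genes tested, 3.9% were higher with all nuclei and 3.92% without the marked ones. The same lists had marked the nuclei, so this loss was set by the marking. Among oligodendrocyte genes, Mbp was called higher in both fits and St18 lower with all nuclei.

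Lower genes included markers of other CeA types. Il1rapl2, a synaptic adhesion receptor that marks a medial CeA type, was at 17.3, 22.8 and 43.6 CPM in the gated nuclei and 274, 477 and 300 in the other inhibitory nuclei, a log2 difference of -3.49 ± 0.22. Trpc5, a calcium-permeable channel, was at 17.3, 11.4 and 53.3 against 206, 272 and 223 (-2.91 ± 0.26), and the transcription factor gene Ebf1 at 21.1, 22.8 and 81.2 against 234, 294 and 264 (-2.54 ± 0.25). For these 3 genes the gated and the other nuclei did not overlap. Chst9 (2.38 CPM on average against 58.9), Galnt14 (-3.20), Vwc2l (-3.09), Col11a1 (-2.68), Coro6 (-2.62), Gulp1 (-2.50) and Col25a1 (-2.33) were lower in both fits.

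Monoamine and acetylcholine receptors were lower as far as they were called. Of 16 tested, 7 were lower and 0 higher, with a median of -1.02, beside 4.4% lower and 3.9% higher over all genes tested. The muscarinic receptor gene Chrm3 was at 115, 6.85 and 71.5 CPM in the gated nuclei against 316, 381 and 339 (-2.39), and the serotonin receptor gene Htr2c at 90.2, 16.0 and 94.5 against 286, 429 and 374 (-2.35). The other called members were Htr1f, Htr2a, Htr4, Adra1a and Chrm2. Fed library 2 had the lowest gated level of both Chrm3 and Htr2c.

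Markers of the other CeA types gave 7 lower genes of 10 (Sst, Ebf1, Il1rapl2, Tafa1, Cacna1g, Rai14 and Vdr) and 1 higher (Prkcd), with a median of -1.67. Several of those types were part of the other inhibitory nuclei, which sets this direction in part. Among neuropeptide genes, Penk and the granule protein gene Chga were higher and Pdyn and Sst lower, of 15 tested. Pdyn, the dynorphin precursor, was at 1.92, 0 and 4.85 CPM against 16.4, 14.8 and 15.2. Of 30 peptide and hormone receptors, Igf1r was higher and Oprd1, Oprk1, Npy2r, Crhr1, Tacr3 and Esr1 were lower, with a median of 0.05. Of all genes tested, 3.9% were higher and 4.4% lower, so 1 higher of 30 is near that share.

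Signalling genes moved both ways, and their counts stand beside 3.9% higher and 4.4% lower over all genes tested. Of 15 D2 and striatal signalling genes, Ppp1r1b (the phosphoprotein DARPP-32), Rgs4, Gng7 and Ptpn5 were higher and Drd3 lower, with a median of 0.30. Of 9 protein kinase C genes, Prkcd, Prkce, Prkch and Prkcq were higher and Prkca lower (0.32). With the marked nuclei left out 8 were tested, not Prkcq, and the other 4 calls remained. Of 15 glucocorticoid-induced genes, Fkbp5, Sgk1, Sgk3 and Zbtb16 were higher and 0 lower (0.52). The kinase gene Sgk1 was at 353, 447 and 378 CPM against 173, 163 and 194, a log2 fold change of 1.14 ± 0.12, and Fkbp5, a regulator of the glucocorticoid receptor, at 175, 185 and 84.8 against 87.6, 107 and 56.5 (0.80 ± 0.13). Of 41 cAMP pathway genes 1 was higher and 6 lower, with a median of -0.03. With the marked nuclei left out 5 were higher (Gnal, Adcy5, Pde1a, Pde7b and Pde8b) and 7 lower.

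Several lists of identity, wiring and excitability genes had more lower than higher calls, beside 3.9% higher and 4.4% lower over all genes tested. Forebrain transcription factors gave 16 lower and 2 higher (Sox5 and Zfhx3) of 47, axon guidance genes 13 lower and 3 higher of 36, and ion channels 14 lower and 3 higher (Kcnd3, Kcnq5 and Cacna2d3) of 46, with medians of -0.32, -0.29 and -0.27. Without the marked nuclei the transcription factors gave 19 lower and 3 higher of 45, with a median of -0.71. Cadherins gave 7 lower and 3 higher (Cdh7, Cdh9 and Cdh18) of 23, and glutamate and GABA receptors 9 lower and 4 higher of 42. The interneuron list gave 4 lower of 6 (Lhx6, Reln, Erbb4 and Kit). Actin and spine regulators gave 4 higher of 35, clock genes 2 higher and 0 lower of 19, and insulin and fasting genes 2 higher and 1 lower of 27.

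**Figure D3:**
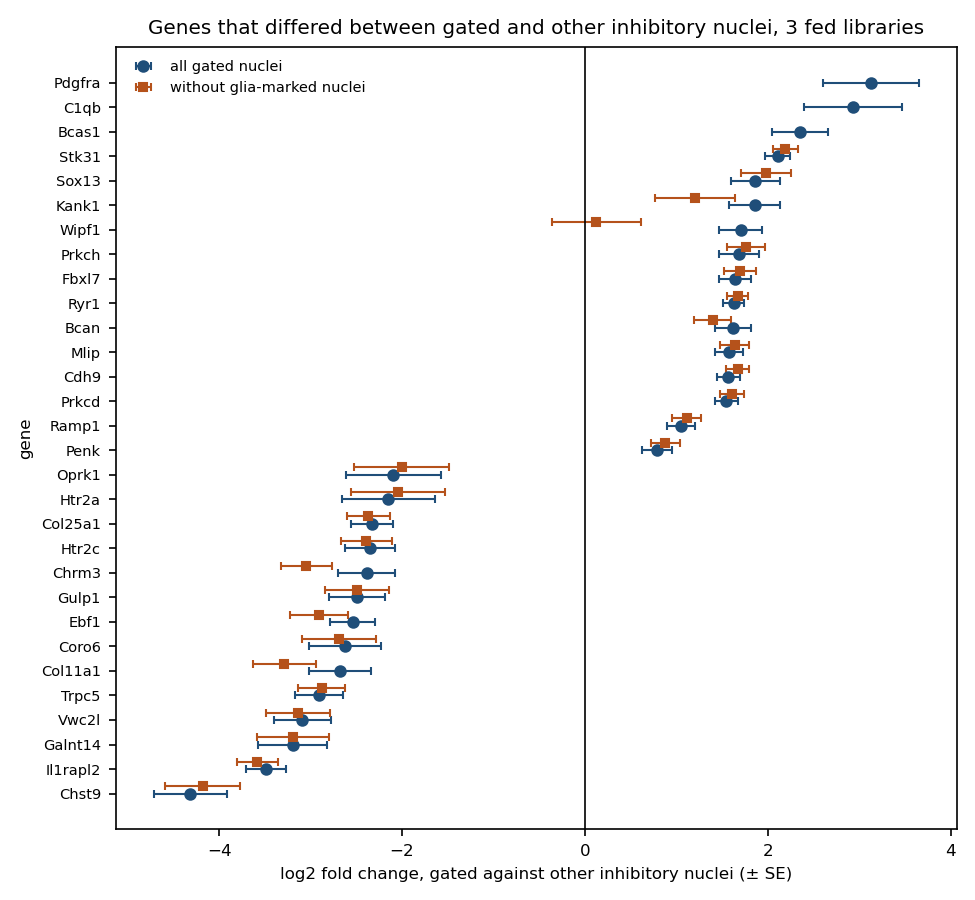
Log2 fold change of the Calcrl-gated against the other inhibitory nuclei in 3 fed libraries (x axis, points with ± SE) for the leading genes and the genes described in any case, with all gated nuclei (circles) and without glia-marked nuclei (squares). Pdgfra, C1qb and Bcas1 have no square because they were not tested without the marked nuclei, and Wipf1 drops from 1.70 to 0.13.

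The gated nuclei were next set against Prkcd nuclei, the neighbouring CeA type, taken as nuclei outside the gate with at least 3 Prkcd UMIs per 10,000 and under the same upper limits. The gated nuclei had more Cdh9, Penk, Rasgrf1 and Epha6, and less of the tachykinin receptor Tacr1 and of Tshz2 and Tmcc3. Prkcd chose the Prkcd nuclei and had a UMI in 127 of 245 gated nuclei. Leaving it out of the test does not free genes that go with it from this choice, and that part was not tested. Of 7629 genes tested in the 3 fed libraries, 422 (5.53%) were higher and 350 (4.59%) lower in the gated nuclei. With the marked nuclei removed the counts were 417 (5.55%) and 334 (4.45%) of 7511, and the 653 shared calls were 84.6% and 87.0% of the 2 sets. Without fed library 3, 344 genes were called.

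Cdh9 was at 81.7, 168 and 133 CPM in the Prkcd nuclei, a log2 fold change of 1.48 ± 0.16 in favour of the gated nuclei, and Penk at 80.1, 161 and 127 CPM (0.78 ± 0.14). Ramp1 differed by 0.49 (edgeR adjusted p = 0.071, and 0.044 without the marked nuclei), so its call depended on them. Rasgrf1, an activator of Ras, was at 290, 205 and 236 CPM against 20.8, 69.2 and 87.1 (1.94 ± 0.25). The ephrin receptor gene Epha6 was at 507, 424 and 596 against 64.1, 186 and 197 (1.79 ± 0.20), and Hs3st4, a heparan sulfate enzyme, at 357, 310 and 398 against 92.9, 71.6 and 135 (1.84 ± 0.14). For these 3 genes the lowest gated library exceeded the highest Prkcd library.

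Tafa1, Dlc1, Lrmda, Nxph1 and Stk32a were among the leading higher genes in both fits, at 3.35, 2.42, 2.35, 3.63 and 3.73 with all nuclei and 2.31, 2.23, 2.17, 1.40 and 2.38 without the marked ones. In the unmarked gated nuclei of fed libraries 1, 2 and 3, 1 nucleus each held 5 of 13, 8 of 18 and 23 of 33 Tafa1 UMIs. Kcnh8, Bcas1, Sox6, Megf11, Itpr2, Spon1 and Dock1 led only with all nuclei and were not tested without the marked ones. Among lower genes, Tmcc3, a membrane protein of the endoplasmic reticulum, was at 593, 404 and 445 CPM against 2276, 2303 and 1906 (-2.15 ± 0.11). The transcription factor gene Tshz2 was at 167, 84.4 and 279 against 729, 830 and 1002 (-2.26 ± 0.18), and Tacr1, the substance P receptor, at 127, 66.2 and 86.0 against 309, 267 and 207 (-1.45 ± 0.15). In each of these the gated libraries all lay below the Prkcd libraries. Fyb2 (-3.09), Boc (-3.09), Magel2 (-3.08), Coch (-3.00), Col27a1 (-2.76), Tex15 (-2.63), Cntnap4 (-2.54), Vwc2 (-2.47), Ccbe1 (-2.28) and Ccdc141 (-2.05) were lower in both fits.

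By list, ion channels gave 12 higher and 2 lower of 43 tested (median 0.22), among the higher Kcnb2, Kcnc2 and Kcnma1. Glutamate and GABA receptors gave 11 higher and 2 lower of 38 (0.19), including Grin2a, Grin2b, Grik3 and Gabra4. Over all genes tested the median was -0.00262, with 5.53% higher and 4.59% lower. Peptide and hormone receptors went the other way, with Oprm1 (the mu opioid receptor), Tacr1, Ntsr1, Hcrtr2 and Nr3c2 lower and Sort1 higher of 13. Oprm1 lost its call with the marked nuclei left out, at -0.45 ± 0.16 (edgeR adjusted p = 0.0856), against -0.54 ± 0.15 with them. Immediate-early genes gave 3 lower of 8 (Egr1, Homer1 and Vgf), glucocorticoid-induced genes 3 lower of 10 (Fkbp5, Sgk1 and Tiparp), and insulin and fasting genes 3 lower of 23 (Foxo1, Fbxo32 and Prkaa2). The serotonin receptor genes Htr1f (1.64) and Htr2c (1.04) were higher here, although both were lower than in inhibitory nuclei as a whole.

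Against the Nts/Tac2 nuclei of the lateral CeA, chosen by at least 6 UMIs per 10,000 of Dnah5, Vipr2, Tac2 and Nts, the gated nuclei differed in dopamine receptor and opioid peptide genes, among others. The gate set an upper limit on these same chosen genes, so other genes that go with them are not free of the choice of nuclei. Drd3, another D2-family dopamine receptor, was at 0, 0 and 1.21 CPM in the gated nuclei and 46.7, 92.4 and 76.1 in the Nts/Tac2 nuclei. Pdyn was at 1.92, 0 and 4.85 against 58.8, 59.0 and 72.3 CPM. The gated sums held 1, 0 and 4 UMIs of Pdyn and 0, 0 and 1 of Drd3, so no fold is given for either. Penk ran the opposite way, at 167, 283 and 187 against 83.0, 47.2 and 34.3 CPM (1.96 ± 0.27). Of 6755 genes tested, 446 (6.6%) were higher and 424 (6.28%) lower in the gated nuclei. These were 399 (6.2%) and 412 (6.4%) of 6434 without the marked nuclei, and without fed library 3, 147 genes were called.

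Cdh9 was at 128, 39.3 and 36.1 CPM in the Nts/Tac2 nuclei (2.51 ± 0.27), whereas Prkcd (0.81, edgeR adjusted p = 0.084) and Ramp1 (0.62, edgeR adjusted p = 0.098) were not called. Stk31 was at 26.0, 7.87 and 9.51 CPM there, a log2 fold change of 3.80 ± 0.46. Col23a1, a transmembrane collagen gene, was at 92.1, 144 and 204 CPM in the gated nuclei against 19.0, 5.90 and 11.4 (3.60 ± 0.33), and Prkd1, protein kinase D1, at 416, 723 and 427 against 121, 59.0 and 46.6 (2.78 ± 0.27). The calcium-dependent channel family gene Ano3 was at 493, 771 and 587 against 125, 66.9 and 71.3 (2.79 ± 0.23), and Runx2 (3.08) was also higher in both fits. Megf11, Bcas1, Sox6, Spon1, Wipf1, Cald1, Kcnh8, Itpr2 and Nxph1 led only with all nuclei and were not tested without the marked ones.

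Lower against the Nts/Tac2 nuclei were Trpc5, at 17.3, 11.4 and 53.3 CPM against 580, 1062 and 754 (-4.74 ± 0.33), and Cntnap4, a synaptic adhesion gene, at 65.2, 16.0 and 41.2 against 540, 922 and 791 (-4.17 ± 0.33). The transcription factor gene Tox was at 61.4, 16.0 and 53.3 against 732, 948 and 849.5 (-4.25 ± 0.29), and Cd44, Fbln2, Shroom3, Syndig1l, Gulp1, Kit and Ebf1 were lower as well, from -4.87 to -3.49. Cadherins gave 10 higher and 4 lower of 20 tested (median 0.51) and glutamate and GABA receptors 13 higher and 5 lower of 38 (0.18), against a median of 0.00475, 6.6% higher and 6.28% lower over all genes. Ion channels (10 higher and 8 lower of 43) and axon guidance genes (7 and 8 of 27) were split. Among peptide and hormone receptors Oprm1, Igf1r, Tacr1 and Adcyap1r1 (the PACAP receptor) were higher and Vipr1 and Hcrtr2 lower, of 14.

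The gated nuclei were not uniform. In the 231 nuclei of at least 4000 UMIs, 37 had UMIs of both Drd2 and Prkcd, 59 of Drd2 only, 86 of Prkcd only and 49 of neither. By library, 25.0, 66.7, 28.0, 33.3 and 52.0% of nuclei with Drd2 also had Prkcd, against 64.7, 78.6, 64.0, 64.7 and 53.6% of those without Drd2. The share was lower in nuclei with Drd2 in all 5 libraries, by the least in fasted library 2. With the marked nuclei left out, the shares were 26.7, 66.7, 28.0, 30.0 and 52.0% against 70.0, 83.3, 84.2, 71.4 and 68.4%. Drd2 is a gene of the gate, so a nucleus with Drd2 could enter with 1 Calcrl UMI, whereas one without it had to reach the limit by Calcrl. Among the 165 nuclei whose Calcrl alone reached the limit, 15 had UMIs of both Drd2 and Prkcd and 15 of Drd2 only, and the shares were 50.0, 100, 33.3, 33.3 and 55.6% against 64.7, 78.6, 64.0, 64.7 and 53.6%. There the share was lower with Drd2 in 3 libraries and higher in fed library 2 and fasted library 2, with 3 to 9 nuclei with Drd2 per library. The relation of Drd2 and Prkcd is therefore given only as a description of nuclei chosen by this gate. Cdh9 had a UMI in 84 of 96 nuclei with Drd2 and 89 of 135 without, and by library in 87.5, 100, 84.0, 81.0 and 92.0% against 67.6, 64.3, 64.0, 64.7 and 67.9%, higher with Drd2 in all 5. Without the marked nuclei fed library 3 had 84.0% against 84.2%, and the other 4 were still higher with Drd2. Where Calcrl alone met the limit, the Cdh9 shares were 66.7, 100, 100, 66.7 and 88.9% against 67.6, 64.3, 64.0, 64.7 and 67.9%. They were then lower with Drd2 in fed library 1 and higher in the other 4, with 3 to 9 nuclei with Drd2 per library. Astrocyte nuclei, at a median depth of 2298 to 4276 UMIs, had a Prkcd UMI in 10.5 to 40.3%, so a single Prkcd UMI marks a nucleus only weakly.

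Nuclei with a Drd2 UMI were then compared with those without, within all 5 libraries. Median depth was 9506, 19584, 15890, 8239 and 22326 UMIs with Drd2 against 9766, 18000, 11364, 7789 and 14726 without, and the part of this difference in the results was not tested. Because the gate asks for a sum of Calcrl and Drd2, nuclei without Drd2 had to hold more Calcrl, and both genes were left out of the test. This does not free the other genes from the gate, so the split was repeated, after the data were seen, among the nuclei whose Calcrl alone reached the limit. In both fits, nuclei with Drd2 had less Prkcd, Alk and Cdc14a and more Htr1f, Phactr1 and Rasgrf1. Of 5009 genes tested, 165 (3.29%) were higher and 159 (3.17%) lower in nuclei with Drd2. Without the marked nuclei 162 of 4493 (3.61%) were higher and 144 (3.2%) lower, and the 220 genes called in both, 218 of them in the same direction, were 67.9% and 71.9% of the 2 sets. With the limit met by Calcrl alone, 34 of 4006 (0.849%) were higher and 21 (0.524%) lower, and 52 of these 55 were also among the 324 called in all gated nuclei. In that fit Phactr1 (1.45), Rasgrf1 (1.52), Alk (-1.27) and Cdc14a (-1.59) were still called, as was Htr1f (edgeR adjusted p = 0.00669). Tacr1 (-1.59, edgeR adjusted p = 0.0591) and Kcnc2 (1.05, edgeR adjusted p = 0.0719) were not. The values that follow are for all gated nuclei and hold for nuclei chosen by this gate.

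Prkcd was at 98.6, 120, 61.2, 89.5 and 122 CPM in nuclei with Drd2 and 297, 372, 478, 316 and 373 in those without, a log2 difference of -1.91 ± 0.20 (n = 5 libraries), and -2.05 without the marked nuclei. Where Calcrl alone met the limit it was -0.99 ± 0.22 (edgeR adjusted p = 0.0309). Alk, a receptor tyrosine kinase, was at 116, 270, 99.2, 72.7 and 158 against 399, 582, 666, 436 and 285 CPM (-1.70 ± 0.23). Tacr1 was at 52.2, 20.0, 59.1, 28.0 and 18.7 against 166, 107, 122, 153 and 159 CPM (-1.98 ± 0.26). For all 3 genes every sum with Drd2 lay below every sum without it. The phosphatase gene Cdc14a (-1.92) and the cytoskeletal gene Epb41l4a (-2.60) were lower with and without the marked nuclei. Vcan, Zeb2, Tox, Acss1, Cdh20, Stard9 and Adamts6 were not tested without the marked nuclei, and Gpc5 moved from -2.75 to -0.37 and lost its call.

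Phactr1, a regulator of protein phosphatase 1 and actin, was at 3677, 2202, 4556, 7063 and 5354 CPM in nuclei with Drd2 against 1976, 1100, 1445, 1515 and 1380 (1.59 ± 0.15). Htr1f was at 180, 70.1, 152, 162 and 141 against 46.6, 34.2, 20.3, 21.3 and 53.9 CPM (1.99 ± 0.25), and Rasgrf1 at 394, 305, 333, 515 and 506 against 230, 124, 107, 131 and 146 (1.53 ± 0.17). The potassium channel gene Kcnc2 was at 191, 195, 230, 235 and 109 against 75.7, 59.9, 69.5, 106 and 44.9 CPM (1.46 ± 0.17). All 4 were higher in 5 of 5 libraries, which the naming of leading genes required, so that agreement was set by the choice. Their 2 sets of sums did not overlap. Cpne5 (1.71), Msra (1.63), Hs3st4 (1.57), Pde11a (1.74), Trpm2 (1.43), Kndc1 (1.41) and Cdh8 (1.38) were also called with and without the marked nuclei. Klhl1 (2.07) could not be tested without them.

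Lists are given beside 3.29% higher and 3.17% lower of all genes tested. Ion channels gave 9 higher and 1 lower (Cacna1a) of 36 in nuclei with Drd2, glutamate and GABA receptors 8 higher and 0 lower of 36, and axon guidance genes 7 higher and 1 lower of 24, with medians of 0.19, 0.15 and 0.36 against 0.000755 over all genes. Where Calcrl alone met the limit, these lists gave 2 higher of 33 (Kcnb2 and Kcnh1), 2 of 34 (Grin2a and Grik4) and 3 of 22 (Epha6, Robo2 and Ntng1), with 0 lower. Over all genes of that fit 0.849% were higher and 0.524% lower. Htr1f, Htr2c and Chrm3 were the 3 of 6 monoamine and acetylcholine receptors that were higher. Of 8 D2 and striatal signalling genes, Adcy5 (0.47) and Pde1b (0.87) were higher, and Adcy5 lost its call without the marked nuclei (edgeR adjusted p = 0.105). Neither was called where Calcrl alone met the limit, nor was Htr2c. Of the 8 genes of the D2 and striatal list tested in that fit, 1 was called, Adora2a, which was higher with Drd2. Cdh9 (0.39), Penk (0.39) and Ramp1 (0.26) were not called, with adjusted p of 0.279, 0.255 and 0.581 in edgeR.

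**Figure D4:**
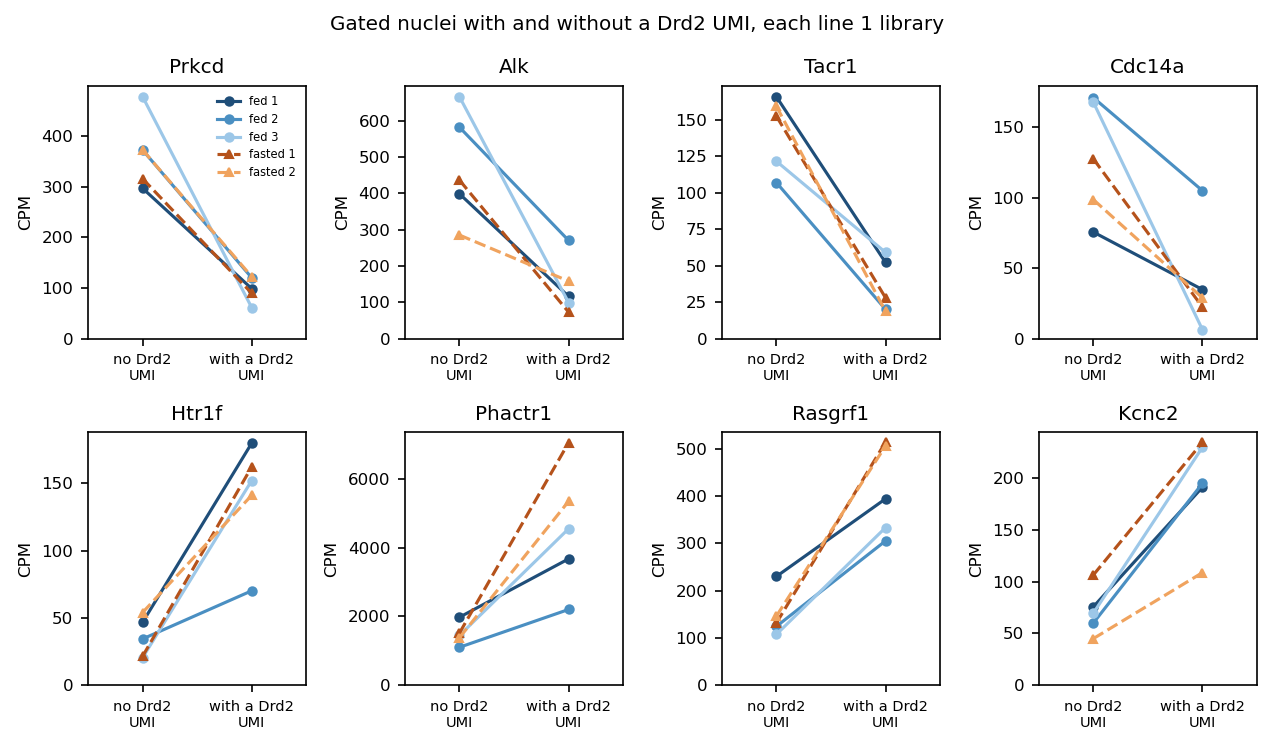
Levels in CPM (y axes from 0) of 8 genes in gated nuclei of at least 4000 UMIs without and with a Drd2 UMI, with 1 line per library (solid fed, dashed fasted). Prkcd, Alk, Tacr1 and Cdc14a go down and Htr1f, Phactr1, Rasgrf1 and Kcnc2 up in 5 of 5 libraries. Leading genes were named only with 1 direction in all libraries. Drd2 is a gene of the gate, and Tacr1 and Kcnc2 were not called where Calcrl alone met the limit.

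The same nuclei were divided by Prkcd, which the gate did not use. Nuclei with Prkcd numbered 26, 17, 23, 29 and 28 and those without 24, 6, 27, 26 and 25, so the sum without Prkcd in fed library 2 rested on 6 nuclei. Median depth was 10199, 17868, 16676, 8349 and 20025 UMIs with Prkcd against 9236, 19383, 10746, 7499 and 15936 without, and the part of this difference in the results was not tested. This split shares its nuclei with the split by Drd2, and the 2 are not independent. Of 4788 genes tested, 189 (3.95%) were higher and 294 (6.14%) lower in nuclei with a Prkcd UMI. Outside the marked nuclei 151 of 4608 (3.28%) were higher and 199 (4.32%) lower, and the 315 shared calls were 65.2% and 90.0% of the 2 sets.

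Alk was at 517, 476, 566, 418 and 305 CPM in nuclei with Prkcd against 65.7, 346, 102, 145 and 81.7 in those without (1.80 ± 0.24). Papln, an extracellular matrix gene, was at 73.4, 64.7, 35.9, 78.9 and 66.0 against 8.21, 16.1, 9.95, 4.83 and 7.01 CPM (2.72 ± 0.35), and Eepd1 at 202, 113, 185, 86.8 and 109 against 24.6, 40.2, 44.8, 24.1 and 11.7 (2.32 ± 0.25). Papln and Eepd1 did not overlap between the sums, and fed library 2 had the highest level of Alk and Papln among nuclei without Prkcd. Slc4a11 (2.18), Gcnt2 (2.03), Cdc14a (1.81), Mob3b (1.75), Mlip (1.49), Stk26 (1.43), Ubash3b (1.38) and Clic6 (1.37) were higher in both fits. Fkbp5 (1.13 ± 0.18), Zbtb16 (0.79 ± 0.19) and Foxo1 (1.29 ± 0.28) were higher too. The first pair were 2 of 5 glucocorticoid-induced genes tested, beside 3.95% higher over all genes of this split.

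Lower genes depended on the glial marks. Sox6, Bcas1, Tafa1, Grin3a, Nxph1, Sema5b, Cspg4 and Pdgfra led the calls with all nuclei and were not tested without the marked ones, and Gpc5 went from -2.68 to 0.18. Genes lower in both fits included the adhesion gene Dscam (-2.67 and -1.98), Pcdh15 (-2.78 and -1.79), the guidance ligand Slit2 (-2.10 and -2.28) and Galntl6 (-1.69 and -1.83). Htr1f (-1.83 ± 0.37), Htr2c (-1.61 ± 0.34) and Adra1a were the 3 called of 5 monoamine and acetylcholine receptors, all lower with Prkcd, beside 3.95% higher and 6.14% lower over all genes of this split. Cdh9 (0.26, edgeR adjusted p = 0.418) was not called.

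The share of gated nuclei among inhibitory nuclei was compared between feeding states. It was 5.56, 2.90 and 3.94% in the fed and 4.33 and 3.70% in the fasted libraries, or 4.13 ± 1.34% (SD, n = 3) and 4.01 ± 0.444% (SD, n = 2). The fasted values lay within the fed range, and the exact two-sided permutation test gave p = 0.9, with 0.1 the smallest p that 3 against 2 libraries allow. With nuclei under 4000 UMIs left out and the others thinned to 4000 before the gate, 882, 795, 1286, 1256 and 1459 inhibitory nuclei remained. The shares were 4.54, 2.64 and 2.72% in fed and 2.63 and 2.60% in fasted libraries, and both fasted values lay below all fed ones. The difference was then -0.683 percentage points against -0.118 without thinning (exact two-sided permutation test, p = 0.5). The direction of the difference turned without fed library 1 or without fasted library 2.

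Fasted and fed sums of the gated nuclei were compared gene by gene. No gene passed, 0 of 7091 tested (0%) and 0 of 6588 without the marked nuclei (0%) in edgeR's quasi-likelihood test, while 347 had an unadjusted p under 0.05. The likelihood ratio test of edgeR called 14 genes, 11 higher and 3 lower in fasted mice, and DESeq2 called 2, Rreb1 and Adarb2. Mitochondrial counts were higher in the fasted gated nuclei, with a median of 0.0871, 0.0263 and 0.0678% of UMIs in fed and 0.243 and 0.192% in fasted libraries, and the other inhibitory nuclei of the fasted libraries also held more, at 0.298 and 0.217%. The part of this difference in the gene results was not tested.

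None of the markers was called between feeding states. On the log2 scale, fasted minus fed was -0.08 ± 0.21 for Cdh9, -0.06 ± 0.20 for Prkcd, 0.08 ± 0.22 for Ramp1 and 0.40 ± 0.26 for Penk. Penk was at 337 and 224 CPM in the fasted against 167, 283 and 187 in the fed libraries, and the groups overlapped.

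The gene with the smallest p was Rreb1, a zinc finger transcription factor, at 178, 173 and 271 CPM in fed and 70.0 and 73.6 in fasted libraries (-1.53 ± 0.25, edgeR adjusted p = 0.131). Adarb2, an RNA-binding relative of the RNA-editing enzymes, was at 200, 86.7 and 176 against 339 and 482 CPM (1.42 ± 0.27, edgeR adjusted p = 0.254). Mgll, the enzyme that breaks down the endocannabinoid 2-arachidonoylglycerol, was at 144, 135 and 109 against 286 and 233 CPM (1.02 ± 0.21, edgeR adjusted p = 0.323). In all 3 the adjusted p stayed above 0.05 in edgeR's quasi-likelihood test. Without the marked nuclei Adarb2 was at 27.6, 9.57 and 96.5 CPM in fed and 188 and 263 in fasted libraries, and 68 of 79 and 234 of 249 of its fasted UMIs came from 1 nucleus each.

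Glucocorticoid-induced genes had a median of 0.52 over 9 tested, beside -0.00632 over all genes, with 0 called. Fkbp5 was at 175, 185 and 84.8 CPM in fed and 263 and 224 in fasted libraries (0.75 ± 0.28, unadjusted p = 0.016 in edgeR), and Zbtb16 differed by 0.57 and Mt1 by 1.23. Immediate-early genes had a median of 0.56 over 6 tested, and 0.28 without the marked nuclei. Homer1, a scaffold gene induced by activity, was at 92.1, 130 and 101 CPM against 216 and 144 (0.74 ± 0.25, edgeR adjusted p = 0.78). Nr4a3 was high in 1 fasted library only, at 161 and 10.5 CPM against 24.2 to 30.7 in fed libraries.

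The other lists also held 0 called genes. Ribosomal protein genes had a median of 0.52 over 21 tested, peptide and hormone receptors -0.23 over 13, insulin and fasting genes 0.05 over 20, clock genes 0.04 over 15, and actin and spine regulators -0.02 over 34. Among the glial lists, precursor genes had 0.84 over 3, microglial genes -0.80 over 6, oligodendrocyte genes 0.08 over 2 and astrocyte genes 0.62 over 6, and 0.35 over 4 for astrocyte genes without the marked nuclei, which made up 11.5, 16.0 and 13.5% of the fed and 15.3 and 22.8% of the fasted gated nuclei. The interneuron list had 0.84 over 2, and 0.98 over 2 without the marked nuclei. D2 and striatal signalling genes had 0.01 over 10, and ion channels -0.03 over 44. The peptide and hormone receptors with the smallest p were Nr3c2, the mineralocorticoid receptor (-0.45 ± 0.19), and Igf1r (-0.41 ± 0.20), neither of them called.

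**Figure D5:**
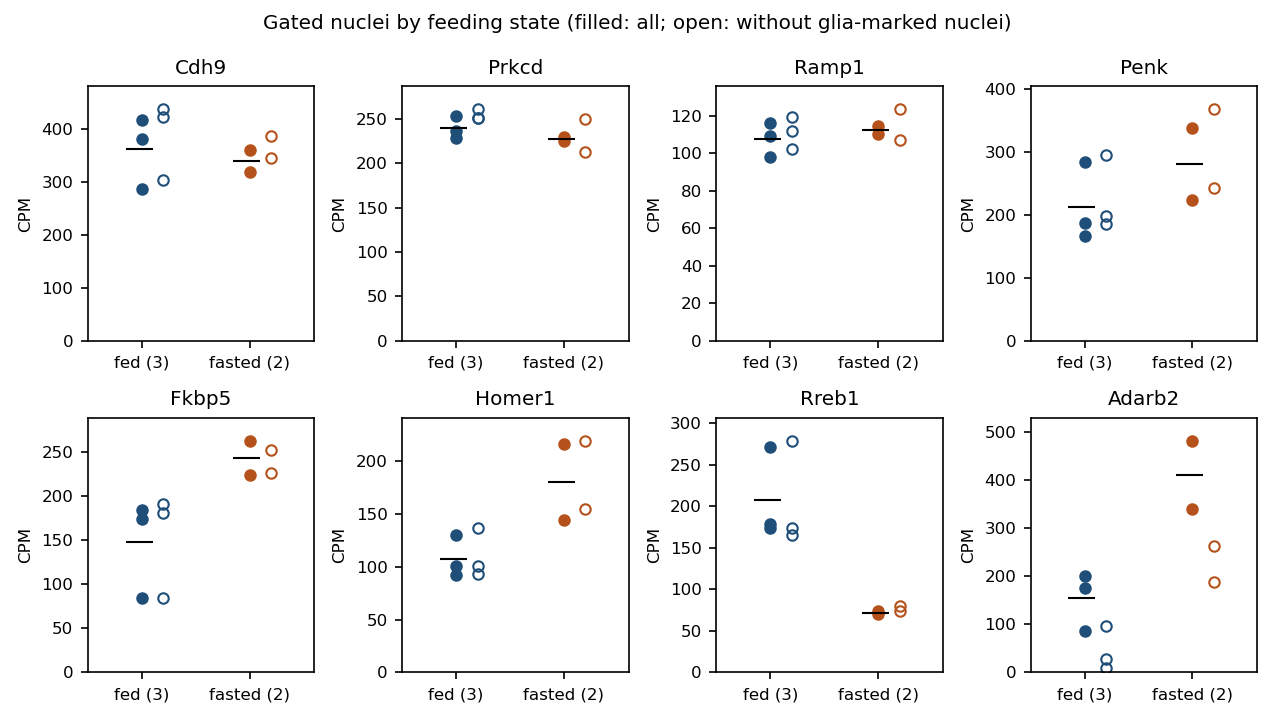
Levels in CPM (y axes from 0) of 8 genes in the Calcrl-gated nuclei of 3 fed and 2 fasted libraries, with all gated nuclei (filled, black line the mean) and without glia-marked nuclei (open). Cdh9, Prkcd, Ramp1 and Penk overlap between states, Rreb1 is at 70.0 and 73.6 CPM in fasted against at least 173 in fed libraries, and none of the 8 was called by edgeR's quasi-likelihood test.

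Whether fasting acted differently in the gated than in the other inhibitory nuclei was tested as an interaction. Of 12657 genes, 3 (0.0237%) differed in edgeR's quasi-likelihood test, Adarb2, Tafa1 and Vcan. DESeq2 called 0 (150 at an unadjusted p under 0.05), and in nuclei of at least 4000 UMIs edgeR called 0 (478 at an unadjusted p under 0.05). The fit without the marked nuclei left 1 of 12389 (0.00807%), Adarb2.

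In fed library 3, mCherry marks cells with past or present Htr2a-Cre activity. It had a UMI in 18 of 52 gated nuclei (34.6%, exact 95% interval 22.0 to 49.1%) and in 406 of 1267 other inhibitory nuclei (32.0%, 29.5 to 34.7%). Astrocyte nuclei, which should lack it, had 3 of 42 (7.14%) at a median depth of 4276 UMIs, against 14947 in the gated nuclei. Without the marked nuclei the shares were 40.0% of 45 gated and 33.4% of 1167 other nuclei. Thinned to 4000 UMIs the shares were 20.0%, 20.6% and 4.35%, and Prkcd and Nts/Tac2 nuclei held 14.3% and 20.0%. The gated nuclei did not stand out, while their Htr2a level in that library was 6.06 CPM against 19.5 in the other inhibitory nuclei. In the same classes of nuclei mCherry had 0 UMIs in the other 4 libraries.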

How the data were processed

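The values are raw UMI counts per gene and barcode that the authors deposited for 5 libraries, made with Cell Ranger on GRCm39 with Ensembl annotation, intronic reads included and Cre and mCherry added. The submitters' processing notes instead name Cell Ranger 2.1.1 and mm10. Coordinates are those of GRCm39. All 22532 genes were read as deposited.

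Nuclei were kept with 500 to 8000 genes and under 0.8% mitochondrial UMIs. Scrublet in scanpy 1.11.5 marked 70 of 7161 nuclei (0.978%) as doublets, 2 of them gated, and they were kept. In 3 pairs of libraries 1 barcode was shared, and 0 gated barcodes were. The members, gene lists and tests were chosen with earlier results of these data known.

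Counts were summed per library and class and tested with edgeR 4.0.16 (R 4.3.3), by the quasi-likelihood test with TMM, filterByExpr and Benjamini-Hochberg adjustment at 0.05, with the library as a block where classes were compared. The genes of the gate were left out of tests, as was Prkcd where it defined a class. The groups came from GEO labels. Libraries of a replicate number shared a preparation batch, as the study's supplement states. For libraries of the same replicate number, deviations from the group means correlated at 0.110 and 0.113 over 7099 genes. Crossing the numbers only flips the sign, since there are 2 fasted libraries. The feeding comparison was also fitted with the replicate number as a block.

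Named genes were the 12 called genes of largest change in each direction at 30 CPM or more in the higher class and with 1 direction in all libraries, plus up to 4 members of each list and the gate and marker genes. Genes without a descriptive name were not named. Some genes that met these rules are not reported here. Shares have exact 95% binomial intervals for counting error alone. A sum of 0 was taken to allow up to 3 counts. Alternatives were DESeq2 1.42.0, no filter, RLE factors, the likelihood ratio test, other limits on nuclei, thinning to 4000 UMIs or to equal totals, doublets removed, and each library left out. Removing nuclei with 10 or more glial or vessel UMIs per 10,000 and splitting by Drd2 only nuclei whose Calcrl alone met the limit were added after seeing the data. Of the fits, 3 were tested on simulated data with 200 genes changed. There the quasi-likelihood test of the feeding comparison found 45% of the 2-fold and 88% of the 4-fold changes. No column was left out.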

Additional observations from a re-analysis of the deposited data

Results flagged for a closer look

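In 3 genes the effect of fasting differed between the Calcrl-gated and the other inhibitory nuclei by an interaction term in edgeR over 5 libraries, whereas DESeq2 called 0, and edgeR 0 in nuclei of at least 4000 UMIs. For Adarb2 the difference of log2 fold changes was 1.58 (adjusted p = 0.0338), with gated means of 154 CPM in fed and 411 in fasted libraries against 669 and 561 in the other inhibitory nuclei. Without glia-marked nuclei it was 2.30, and the fasted level then rested on 1 nucleus in each library, with 11 and 15 UMIs in the remaining nuclei. For Tafa1 it was 1.38 (adjusted p = 0.0338), with gated means of 85.2 and 196 CPM, and for Vcan 1.46 (adjusted p = 0.0462), with 53.3 and 119 CPM. Without glia-marked nuclei Tafa1 and Vcan gave 0.13 and 0.05 and were not called.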

How the results depend on the processing

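The replicate block left the feeding comparison at 0 called genes, the same as without it. For that comparison DESeq2 called 2 genes, no filter on low counts 30 and the likelihood ratio test 14, and leaving out 1 library gave 0 to 3. DESeq2 called 620 genes against the other inhibitory nuclei, 308 against Prkcd nuclei, 443 against Nts/Tac2 nuclei, 271 in the split by Prkcd and 153 in that by Drd2, all fewer. With all 5 libraries, 1821 genes differed from the other inhibitory and 1230 from the Prkcd nuclei. The split by Drd2 gave 55 among nuclei whose Calcrl alone met the limit, where 3 to 9 nuclei per library had Drd2. With no filter the splits by Prkcd and Drd2 gave 748 and 557. Leaving out 1 library gave 344 to 903 calls against Prkcd nuclei, 147 to 856 against Nts/Tac2 nuclei, the lowest in both without fed replicate 3, and 178 to 302 in the split by Drd2, lowest without fasted replicate 1 (fed replicate 3 195, fasted replicate 2 198). The interaction gave 0 calls in DESeq2, 15 with no filter, 0 in nuclei of at least 4000 UMIs, 1 without glia-marked nuclei and 1 to 18 with 1 library left out, the 18 without fasted replicate 1. The share of gated nuclei, fasted minus fed, ranged from -0.734 to 0.594 percentage points with 1 library left out, and was reversed without fed replicate 1 (0.594) and without fasted replicate 2 (0.196). With nuclei gated at equal depth it was -0.683, against -0.118, with both fasted libraries below all fed ones. Where a fasted replicate is left out, 1 fasted library remains, which the fits assume to vary like the fed ones. The mCherry share was 20.0% after thinning. Gpc5 was reversed in the split by Prkcd without glia-marked nuclei (0.18). Of the values for single named genes under alternatives, 2113 stayed on their side of the threshold, 82 lost a call and 12 gained one. For the comparisons as a whole, 64 values stayed within 1.5 times or on their side of the threshold, 27 moved and 2 were reversed. The causes were not tested. The feeding comparison has 2 fasted libraries and sums from 438233 UMIs, which limits its precision for low genes, and each library pools 2 mice.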

Other observations

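Stk31 and Ryr1 varied between libraries in the gated and the other inhibitory nuclei alike. Stk31 was at 78.7, 424 and 189 CPM in the gated nuclei of fed libraries 1 to 3 and 99.7 and 258 in fasted libraries 1 and 2, and at 22.9, 88.4, 42.9, 22.1 and 65.3 in the other inhibitory nuclei. Ryr1 was at 462, 242, 378, 401 and 151 CPM in the gated and 132, 76.4, 140, 120 and 56.5 in the other inhibitory nuclei. Libraries 2 of both feeding states held the highest Stk31 and the lowest Ryr1 levels in both classes. They shared a preparation if the replicate numbers follow the study's own names, which the labels do not state. Both genes were chosen for this after their values were seen.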
